A study of Mus musculus with 2 samples.

Results

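ATAC-seq uses the Tn5 transposase, which inserts sequencing adapters into DNA that is not wrapped in nucleosomes, so that reads pile up into peaks over open chromatin. The regions described are the peaks that the authors annotated to the first intron of a gene in mouse regulatory T (Treg) cells. They were taken from both deposited peak lists as every row whose annotation names an intron and gives it as intron 1 of its transcript. This rule held for 1526 of 19680 peaks in the TKT cKO library and for 3262 of 34440 peaks in the WT library, which is 4788 of 54120 rows in all. TKT is transketolase, an enzyme that moves carbon units between sugar phosphates in the pentose phosphate pathway.

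TKT cKO cells came from a female mouse that carried Foxp3cre/+ and TKTfl/fl, and WT cells came from a female mouse that carried Foxp3cre/+ alone. The Cre thus acts in cells that express Foxp3, and the controls carry it too. Both mice were C57BL/6, described as chimeric and 7 weeks old. Their spleen and lymph node gave the CD4+CD25+YFP+ cells, isolated by flow cytometry, and 50000 of these went into each library. There was 1 library per genotype, so genotype, mouse and library cannot be told apart, no test between genotypes was possible, and every interval given is a 95% interval that covers counting error only. The files give no read counts, so the sequencing depth is unknown.

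First introns are known as places where enhancers and alternative start sites lie close to the promoter, and intronic enhancers of T cell genes are bound by factors of the ETS, RUNX, forkhead and TCF/LEF families. In Treg cells the best studied intronic elements are those of Foxp3 itself. The annotation used here gives promoters precedence over introns, so a peak within 3 kb of a start site counts as promoter even where it lies in intron 1. The nearest first-intron peak lay 3006 bp from its assigned start in each of the lists.

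The labelled cell type was checked on its markers. Foxp3, the master transcription factor of Treg cells, had 2 peaks in the TKT cKO list and 2 in the WT list, all annotated as promoter. Ctla4, the inhibitory receptor, had 3 peaks in TKT cKO cells and 4 in WT cells, and Ikzf2, the transcription factor Helios, had 5 in TKT cKO cells and 7 in WT cells, none in a first intron. The sort marker Il2ra, which encodes CD25, did have first-intron peaks and is described further on. No gene among 8 B cell markers, 7 myeloid markers and 5 CD8 T and NK cell markers had a first-intron peak in either list. Few genes of any kind had one. There were 985 genes whose first intron held a peak, beside 14043 genes with an assigned peak of any class in TKT cKO cells. In WT cells there were 1752 beside 19215. Hosts are read from the annotation and need not be the assigned genes. By assigned gene alone, 1091 of the 14043 had a first-intron peak in TKT cKO cells and 2033 of the 19215 in WT cells. Foxp3, Ctla4 and Ikzf2 had none either, so this absence does not separate cell types. Peaks of any class were assigned to 3 of the B cell genes in TKT cKO cells and 4 in WT cells, to 4 myeloid genes in each list and to 3 CD8 T and NK genes in each list. Tkt had 1 peak in TKT cKO cells and 1 in WT cells, both at the promoter, which does not check the deletion.

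A small part of the first-intron peaks lay at or near another start site, and RefSeq (GRCm38.p6, the assembly that mm10 names) gives the sequence there. Of the first-intron peaks, 17 in TKT cKO cells (1.11%, 0.697 to 1.78) and 36 in WT cells (1.10%, 0.798 to 1.52) overlapped a 300 base window that runs from 250 bases before to 50 bases after a RefSeq start. Some only touched its edge, and 9 peaks in TKT cKO cells and 19 in WT cells held the whole window. The windows below are of the host gene's own start and lay wholly within the WT peak, with predicted models passed over. Among these, the first 3 belong to the WT peaks of highest score that had a partner in the TKT cKO list, and the last 2 to the WT peaks of highest score that had none. Capitals mark the motif letters that were found, and all other letters are in lower case.
Srebf1: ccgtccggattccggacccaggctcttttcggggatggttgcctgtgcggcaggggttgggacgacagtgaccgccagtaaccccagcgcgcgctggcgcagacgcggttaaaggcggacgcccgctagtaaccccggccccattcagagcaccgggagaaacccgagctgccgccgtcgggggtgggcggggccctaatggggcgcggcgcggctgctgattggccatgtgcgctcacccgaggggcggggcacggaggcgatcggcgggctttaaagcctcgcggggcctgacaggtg
Trim30a: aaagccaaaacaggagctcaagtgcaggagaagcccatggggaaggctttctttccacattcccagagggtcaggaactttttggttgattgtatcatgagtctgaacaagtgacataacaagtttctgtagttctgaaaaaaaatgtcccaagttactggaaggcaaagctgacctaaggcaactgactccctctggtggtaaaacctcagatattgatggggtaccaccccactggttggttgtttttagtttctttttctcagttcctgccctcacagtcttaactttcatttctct
Ikzf1: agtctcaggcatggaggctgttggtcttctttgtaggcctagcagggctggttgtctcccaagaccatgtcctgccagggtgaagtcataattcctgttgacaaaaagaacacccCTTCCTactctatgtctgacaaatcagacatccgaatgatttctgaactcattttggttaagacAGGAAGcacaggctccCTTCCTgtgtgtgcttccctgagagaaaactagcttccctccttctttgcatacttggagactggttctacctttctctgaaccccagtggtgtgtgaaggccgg
Filip1: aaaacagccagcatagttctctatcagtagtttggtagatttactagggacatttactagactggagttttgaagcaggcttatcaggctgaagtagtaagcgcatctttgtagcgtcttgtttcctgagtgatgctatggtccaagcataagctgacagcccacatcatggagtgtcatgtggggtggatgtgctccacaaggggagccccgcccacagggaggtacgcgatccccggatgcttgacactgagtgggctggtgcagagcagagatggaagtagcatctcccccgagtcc
Tspan9: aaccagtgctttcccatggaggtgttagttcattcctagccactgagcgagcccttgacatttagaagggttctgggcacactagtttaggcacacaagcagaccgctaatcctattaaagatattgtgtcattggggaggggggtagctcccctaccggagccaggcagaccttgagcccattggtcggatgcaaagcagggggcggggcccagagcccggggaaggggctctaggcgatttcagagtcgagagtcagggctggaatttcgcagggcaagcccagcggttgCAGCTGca

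The Srebf1 window, at chr11:60210422-60210721 on the minus strand, covers the RefSeq start of the gene for the lipid synthesis regulator SREBP-1. It held none of the motifs searched, and 70.7% of its bases are G or C. Its peak ranked 5364 of 19680 in the TKT cKO list and 2962 of 34440 in the WT list. As percentiles these are 72.75 in TKT cKO cells and 91.4 in WT cells. The Trim30a window, at chr7:104446076-104446375 on the minus strand, belongs to an interferon-inducible TRIM protein of the mouse and held none of the motifs either. Its peak ranked 3514 of 19680 in TKT cKO cells and 5450 of 34440 in WT cells. As percentiles these are 82.15 in TKT cKO cells and 84.2 in WT cells. The Ikzf1 window, at chr11:11689927-11690226 on the plus strand, belongs to the lymphocyte transcription factor Ikaros. It held the ETS letters AGGAAG 3 times, at positions 116, 180 and 196 counted from 1 at the 5′ end, the first and last of them on the other strand. The Ikzf1 peak stood at score percentile 56.0 in TKT cKO cells and 73.0 in WT cells. The Filip1 window, at chr9:79962032-79962331 on the minus strand, held none of the motifs. The Tspan9 window, of a tetraspanin gene, at chr6:128035013-128035312 on the minus strand, held the E-box letters CAGCTG at position 293. The peaks of both were weak, at percentile 20.1 of the WT list for Filip1 and 15.6 for Tspan9.

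Over the 37 distinct windows that first-intron peaks of either list touched, ETS letters (AGGAAG) stood in 37.8% (24.1 to 53.9), against 35.35% of all 32851 RefSeq start windows of the same length. RUNX letters (TGTGGTT) stood in 10.8%, against 5.27% of all windows, and forkhead letters (TGTTTAC) in 8.11%, against 3.65%. AP-1 letters (TGANTCA) stood in 13.5%, against 7.81%, TCF/LEF letters (CTTTGAA) in 5.41%, against 5.135%, and E-box letters in 24.3%, against 16.3%. KLF letters (GGGTGTG) stood in 18.9% (9.48 to 34.2), against 7.95% of all windows. CTCF letters (AGGGGGCGC) stood in none, where up to 9.41% is within the interval, against 1.245% of all windows. Both strands were searched, and the intervals are wide at 37 windows. Only the KLF interval, which rests on 7 windows, lay above the share of all windows. No allowance was made for the number of motifs searched, so nothing is read from it. These matches describe letters in the start windows and not the whole peaks, whose sequences were not analysed here. The start belonged to the host gene itself for 9 TKT cKO peaks and 15 WT peaks, and to a predicted or unnamed model for 10 TKT cKO peaks and 25 WT peaks. All 17 TKT cKO peaks with a start window had a partner in the other list, and so did 21 of the 36 in WT cells (58.3%, 42.2 to 72.9), where first-intron peaks of like score gave 56.65%.

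First-intron peaks made up 7.75% of the TKT cKO list (7.39 to 8.14) and 9.47% of the WT list (9.17 to 9.79). Among intron peaks of all ranks they were 39.3% in TKT cKO cells and 36.1% in WT cells. The WT list is the longer one, and when it was shortened to its strongest 19680 peaks the share of first-intron peaks in it was 7.04% (6.69 to 7.40), below the TKT cKO share. They covered 1484.2 kb in TKT cKO cells and 3140.7 kb in WT cells. The median width was 882 bp in TKT cKO cells, with the middle 50% of peaks from 646 to 1177 bp, and 871 bp in WT cells, from 604 to 1211 bp. Later-intron peaks had median widths of 851.5 bp in TKT cKO cells and 805 bp in WT cells, and promoter peaks had 1047 bp in TKT cKO cells and 1139 bp in WT cells.

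Each peak carries a score from the authors whose meaning is not stated, so it was used only to rank peaks within their own list, as a percentile in which 100 is the strongest. First-intron peaks stood low in both lists, with a median percentile of 30.6 in TKT cKO cells and 36.9 in WT cells. Later-intron peaks were a little lower, at 29.1 in TKT cKO cells and 33.9 in WT cells, and promoter peaks far higher, at 64.1 in TKT cKO cells and 71.2 in WT cells. Only 30 first-intron peaks in TKT cKO cells and 39 in WT cells fell in the strongest of 10 equal score bins.

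The median distance to the assigned start site was 12067 bp in TKT cKO cells and 11658 bp in WT cells, against 18859 bp for later-intron peaks of TKT cKO cells and 18482 bp for those of WT cells. The farthest first-intron peak lay 302867 bp away in TKT cKO cells and 316945 bp away in WT cells, both in Rora. The gene assigned by the authors is the one with the nearest start, and it was also the gene whose intron holds the peak for 65.9% of first-intron peaks in TKT cKO cells and 65.0% in WT cells. For later-intron peaks that was the case for 44.1% in TKT cKO cells and 43.35% in WT cells. Placed on the RefSeq span of the host gene, the median first-intron peak lay 27.3% of the way along it in TKT cKO cells and 26.6% in WT cells, and 83.4% of the TKT cKO peaks and 83.0% of the WT peaks lay within the first 50% of the gene. These values are over the 1303 of 1526 TKT cKO peaks and 2752 of 3262 WT peaks that lay inside a host with a RefSeq span and strand. The median later-intron peak lay 57.0% along the gene in TKT cKO cells and 58.0% in WT cells.

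A peak was said to have a partner where a peak of the other list overlapped it by at least 1 bp. Of the 1526 first-intron peaks of TKT cKO cells, 1471 had a WT partner (96.4%, 95.3 to 97.2), where 97.6% of all TKT cKO peaks did. Of the 3262 first-intron peaks of WT cells, 1452 had a TKT cKO partner (44.5%, 42.8 to 46.2), where 56.1% of all WT peaks did. This left 55 TKT cKO peaks and 1810 WT peaks without a partner. When the lists were made equally long, the shares were 69.9% in TKT cKO cells and 74.95% in WT cells. Only 6 of the shared TKT cKO peaks and 5 of the shared WT peaks overlapped several peaks. Equal list lengths therefore bring the shares of the libraries close by construction, and no cause of the gap is read from this. The partner was itself a first-intron peak for 1437 of the shared TKT cKO peaks and 1439 of the shared WT peaks, and it was a promoter peak for 20 TKT cKO and 6 WT peaks.

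Shared peaks were wider and stronger than the rest. In TKT cKO cells the median width was 898 bp with a partner and 589 bp without, and in WT cells 1168 bp with and 670.5 bp without. The median score percentile was 32.1 with a partner and 4.055 without in TKT cKO cells, and 57.3 with and 22.4 without in WT cells. The overlaps were rarely marginal: their median length was 835 bp for TKT cKO peaks and 833.5 bp for WT peaks, and 98.8% of shared TKT cKO peaks and 98.5% of shared WT peaks overlapped by at least 50% of the shorter peak. The WT peak was usually the wider of a pair, since 15.2% of TKT cKO peaks and 83.3% of WT peaks were wider than their partner. Unshared peaks lay a median of 6026 bp from the nearest peak of the other list in TKT cKO cells and 10637 bp in WT cells. In WT cells 338 unshared peaks were narrower than the narrowest peak of the TKT cKO list, which was 465 bp wide.

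The share with a partner climbed steeply with score in WT cells. It was 7.01% of 485 first-intron peaks in the lowest score bin, 46.6% of 401 in bin 5, 83.9% of 329 in bin 7 and 39 of 39 in the highest bin. In TKT cKO cells it was 84.3% of 268 peaks in the lowest bin, 99.4% of 166 in bin 5, and no peak lacked a partner in bins 6 to 10, where between 30 and 130 peaks per bin allow up to 10% and 2.31% without one, counting 3 peaks as the limit.

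**Figure D1:**
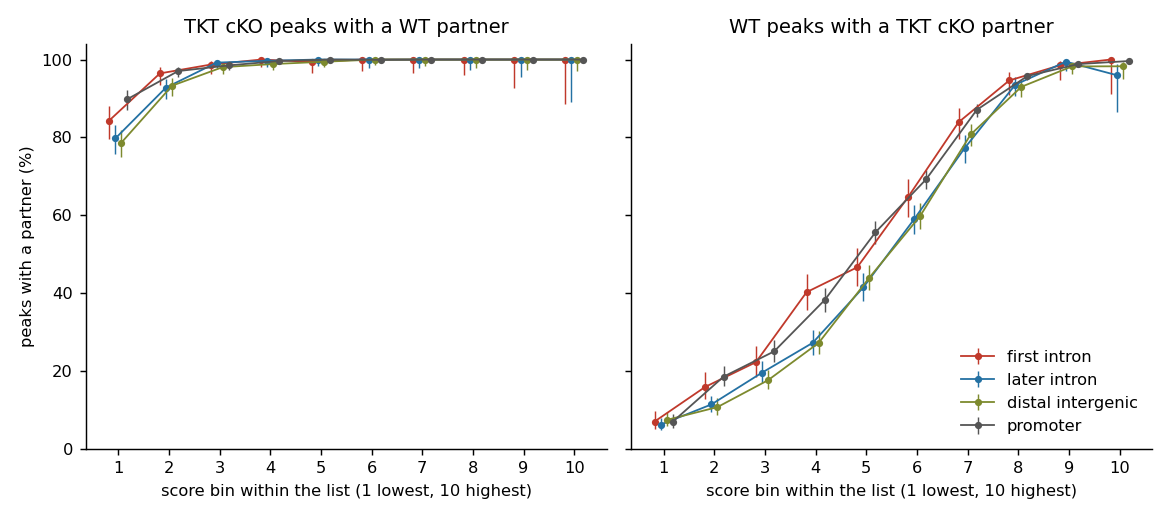
Percentage of peaks with an overlapping peak in the other list (y axis) in 10 equal score bins of their own list (x axis, 1 lowest), for TKT cKO peaks (left) and WT peaks (right), with one line per annotation class and 95% Wilson intervals as bars. In WT cells the first-intron share runs from 7.01% in bin 1 to 100% in bin 10 and lies above the later-intron share in bins 1 to 8 and in bin 10. In TKT cKO cells all classes lie close to 100% from bin 3 on.

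Since score and sharing move together, the classes were set against each other at like score, as the difference of shares averaged over the score bins with weights from the first-intron peaks. In WT cells first-intron peaks had a partner more often than later-intron peaks by 4.79 percentage points (3.11 to 6.47), at shares of 44.5% and 39.7%. Without regard to score the difference was 7.30 points (5.19 to 9.42). With width as well as score held alike it was 3.08 points (1.504 to 4.66), with distance as well as score 5.25 points (3.52 to 6.98), and with all 3 together 2.84 points (1.20 to 4.48). The first-intron share was also above that of distal intergenic peaks by 4.25 points at like score (2.63 to 5.87), where it was 1.66 points without regard to score (-0.399 to 3.72) and 2.13 points with width held alike too (0.597 to 3.67).

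Against promoter peaks of WT cells the first-intron share was lower by 29.8 points without regard to score, and the difference was -2.49 points at like score (-4.09 to -0.892). Set against only those promoter peaks that lie 1 to 3 kb from a start, the difference was 3.23 points (1.15 to 5.31), in the other direction. In TKT cKO cells, where nearly every peak had a partner, the differences at like score were smaller. They were 1.32 points against later introns (0.113 to 2.52), 1.77 points against intergenic peaks (0.592 to 2.94) and -1.05 points against promoters (-2.07 to -0.0258). With distance held alike too, the TKT cKO difference against later introns was 1.10 points, and its interval, -0.129 to 2.33, held 0.

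**Figure D2:**
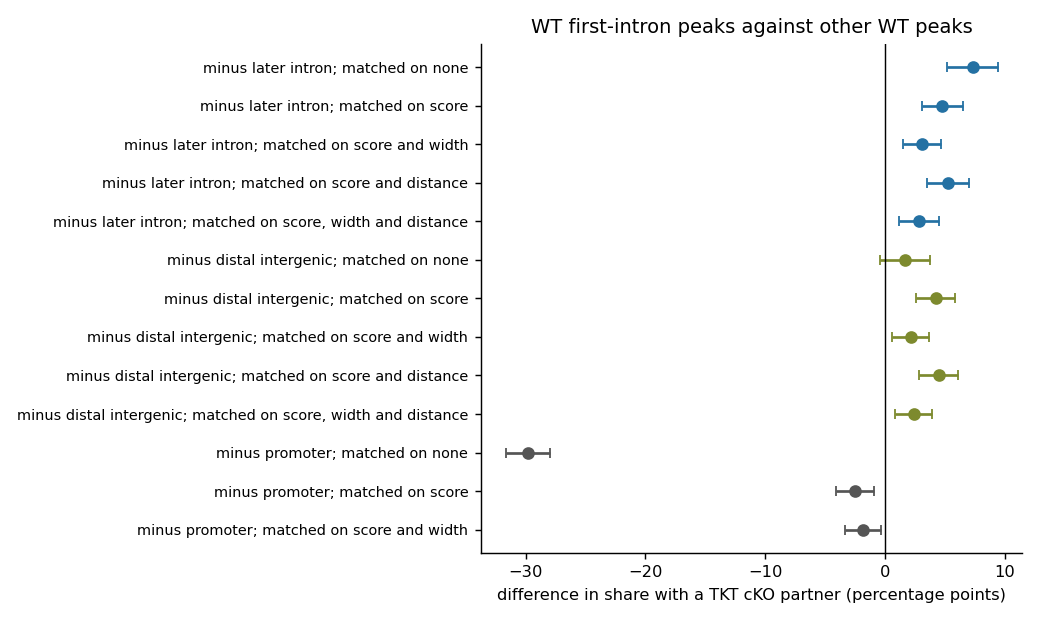
Difference, in percentage points (x axis), between the share of WT first-intron peaks with a TKT cKO partner and that of 3 other classes of WT peaks (rows), for peaks set side by side on nothing, on score, and on score with width or distance; points are differences and bars 95% intervals from counting error. The later-intron differences run from 2.84 to 7.30 points, and the promoter difference moves to -2.49 points from -29.8 once score is held alike.

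Within the first-intron peaks of WT cells, width set peaks apart beyond their score. Peaks in the narrowest of 4 width classes of the list (360 to 667 bp) had a partner in 11.6% of cases, where first-intron peaks of like score gave 21.95%. Those in the widest class (1303 bp and over) had one in 84.6%, where like score gave 68.5%. A wide peak meets another by 1 bp more easily, and the part of this in the difference was not tested. Distance to the assigned start made little difference: the WT share was 42.0% at 3 to 5 kb (37.3 to 46.9), 43.3% at 5 to 10 kb, 46.5% at 10 to 20 kb, 43.5% at 20 to 50 kb and 48.7% beyond 50 kb (42.35 to 55.1), and these intervals overlap one another. The corresponding TKT cKO shares lay between 95.1% and 98.3%.

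**Figure D3:**
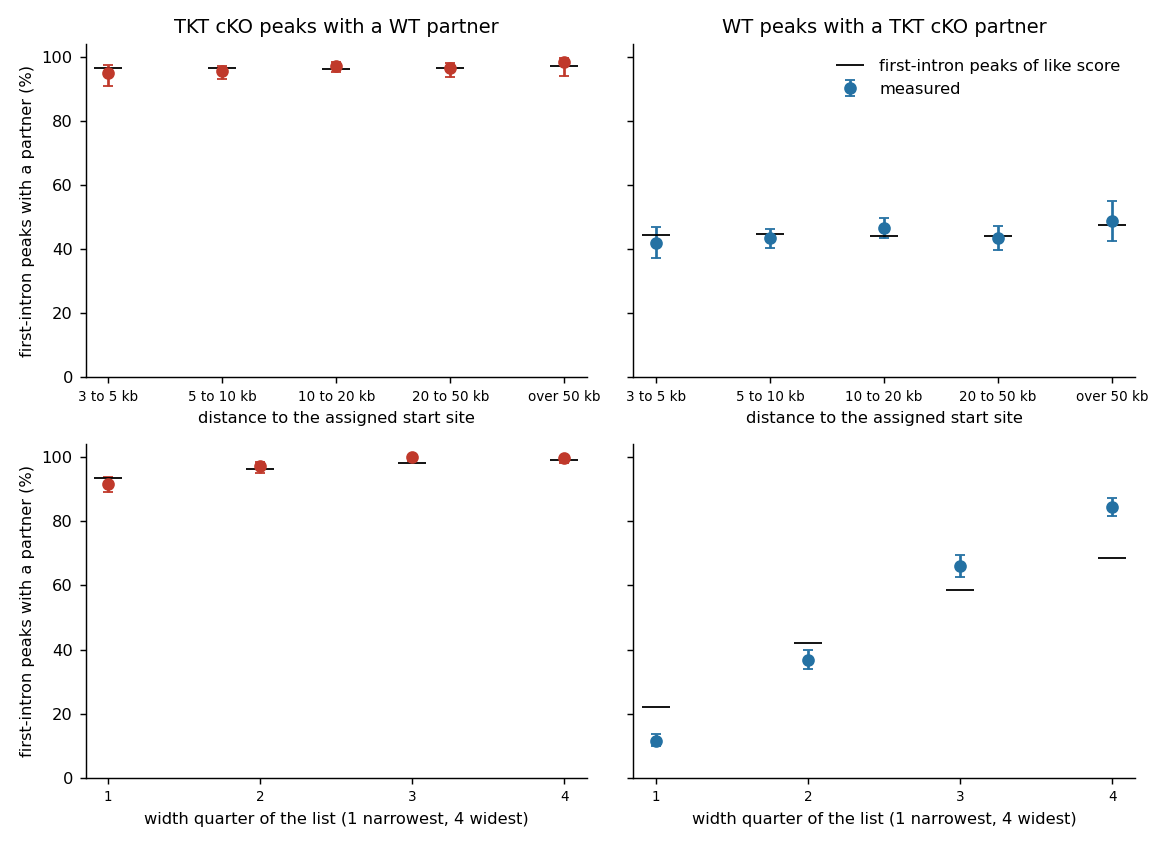
Percentage of first-intron peaks with a partner in the other list (y axis) by distance to the assigned start site (upper row) and by width class of the list (lower row), for TKT cKO peaks (left) and WT peaks (right); points are measured shares with 95% Wilson intervals and black dashes are the shares of first-intron peaks of like score. WT shares stay between 42.0% and 48.7% across distance and run from 11.6% to 84.6% across width.

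Peaks in genes with many first-intron peaks were shared more often. In WT cells the share was 39.8% for hosts with 1 such peak (36.9 to 42.7), 43.8% for hosts with 2 to 3, 48.9% for hosts with 4 to 6 and 51.9% for hosts with 7 or more (47.3 to 56.4). First-intron peaks of like score gave 41.95%, 44.7%, 47.15% and 46.7% for the same 4 classes. Peaks of 1 host share their gene, so these intervals take peaks as more independent than they may be. On the X chromosome 20 of 60 WT peaks had a partner (33.3%, 22.7 to 45.9), where like score gave 40.3%, and 20 of 21 TKT cKO peaks did.

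The first-intron peaks were spread over 985 host genes in TKT cKO cells and 1752 in WT cells. A single peak was found in 702 TKT cKO hosts (71.3%) and 1104 WT hosts (63.0%), and 7 or more in 12 TKT cKO hosts and 42 WT hosts. Neighbouring peaks of 1 host lay a median of 10.1 kb apart in TKT cKO cells and 7.64 kb apart in WT cells. By the gene the authors assigned, 48 genes had a first-intron peak in TKT cKO cells alone, 990 in WT cells alone and 1043 in both. Of the genes found in one library alone, 25 of the TKT cKO genes and 10 of the WT genes had a first-intron peak that was nevertheless overlapped by a peak of the other list. With the lists made equally long, 282 genes were found in TKT cKO cells alone and 213 in WT cells alone. The counts of genes in one library alone thus depend on list length.

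Host genes with WT first-intron peaks and none in TKT cKO cells, 806 by the intron that holds the peak, were not bare in the TKT cKO list. A TKT cKO peak of some class was present in 558 of them (69.2%) and a TKT cKO promoter peak in 483 (59.9%). Among those with a WT promoter peak, 478 of 573 had a TKT cKO promoter peak (83.4%), and among the 946 hosts with first-intron peaks in both libraries 657 of 749 did (87.7%).

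The genes with most first-intron peaks include several regulators of T cells. Foxp1, a forkhead transcription factor that maintains the quiescence of naive T cells, had 15 first-intron peaks in TKT cKO cells and 17 in WT cells, the joint highest WT count among named genes. All 15 TKT cKO peaks had a WT partner, and the 2 WT peaks without one were narrow, at 575 and 378 bp, and weak, at percentiles 4.42 and 7.92. The strongest Foxp1 peak reached percentile 68.6 in TKT cKO cells and 81.8 in WT cells. The peaks fall in the first introns of several transcripts of the gene, on chromosome 6 between 99260650 and 99504377, and 9 in each library were assigned by nearest start to the predicted gene Gm20705.

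Tox, an HMG-box factor needed for CD4 T cell development and known for its role in exhausted T cells, had 7 first-intron peaks in TKT cKO cells and 17 in WT cells. All 7 TKT cKO peaks and 7 of the WT peaks had partners, and the 10 WT peaks without one ranged over percentiles from 2.15 to 67.8. The strongest of these 10, at chromosome 4, 6924522 to 6925348, lay 65451 bp into the gene. Tox thus held as many WT peaks as Foxp1 with fewer partners, where 44.5% of all WT first-intron peaks had one. The WT peaks of Tox also stood lower, at a median percentile of 45.5 against 55.05 in Foxp1. Rora, the nuclear receptor RORα, had 5 peaks in TKT cKO cells and 12 in WT cells, with 5 of the WT peaks shared. Its strongest peak, at chromosome 9, 69033950 to 69035036 in TKT cKO cells and 69033912 to 69035002 in WT cells, stood at percentile 92.1 in TKT cKO cells and 91.8 in WT cells. The 7 WT Rora peaks without a partner stood at percentiles from 3.35 to 53.05.

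Ext1, a glycosyltransferase of heparan sulfate synthesis, had 10 peaks in TKT cKO cells and 15 in WT cells, of which 10 were shared, over 213.6 kb in TKT cKO cells and 215.1 kb in WT cells. Pip4k2a, a phosphoinositide kinase, had 8 peaks in TKT cKO cells and 13 in WT cells, 9 of them shared. Its count of shared peaks is higher in WT cells because 2 WT peaks, 18982634 to 18983089 and 18983508 to 18984826 on chromosome 2, fell on a single TKT cKO peak. Prkch, a protein kinase C isoform, had 8 peaks in TKT cKO cells and 11 in WT cells, with all 8 and 8 of 11 shared. Its strongest peak stood at percentile 89.8 in TKT cKO cells and 83.3 in WT cells.

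Other hosts had several WT peaks without a partner, where 44.5% of all WT first-intron peaks had one. No share at like score was computed for single genes. Abtb2, an ankyrin and BTB domain protein, had 5 peaks in TKT cKO cells and 12 in WT cells, with 5 WT peaks shared. The 5 TKT cKO peaks of Abtb2 lay 66.7 to 101.8 kb from the outermost RefSeq start of the gene, which spans 152.1 kb. The WT peaks of Abtb2 began at 10.1 kb. Ubash3b, a phosphatase that dampens T cell receptor signalling, had 3 peaks in TKT cKO cells and 11 in WT cells, and 8 of the WT peaks had no partner. With predicted models passed over, that was the most after the 10 of Tox among the genes named here. The strongest Ubash3b peak stood at percentile 85.6 in TKT cKO cells and 92.8 in WT cells. Maml3 and Maml2, coactivators of Notch, had 7 and 6 peaks in TKT cKO cells and 11 and 11 in WT cells, and 5 WT peaks of each were shared. All 7 TKT cKO peaks of Maml3 and 5 of the 6 of Maml2 had WT partners.

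**Figure D4:**
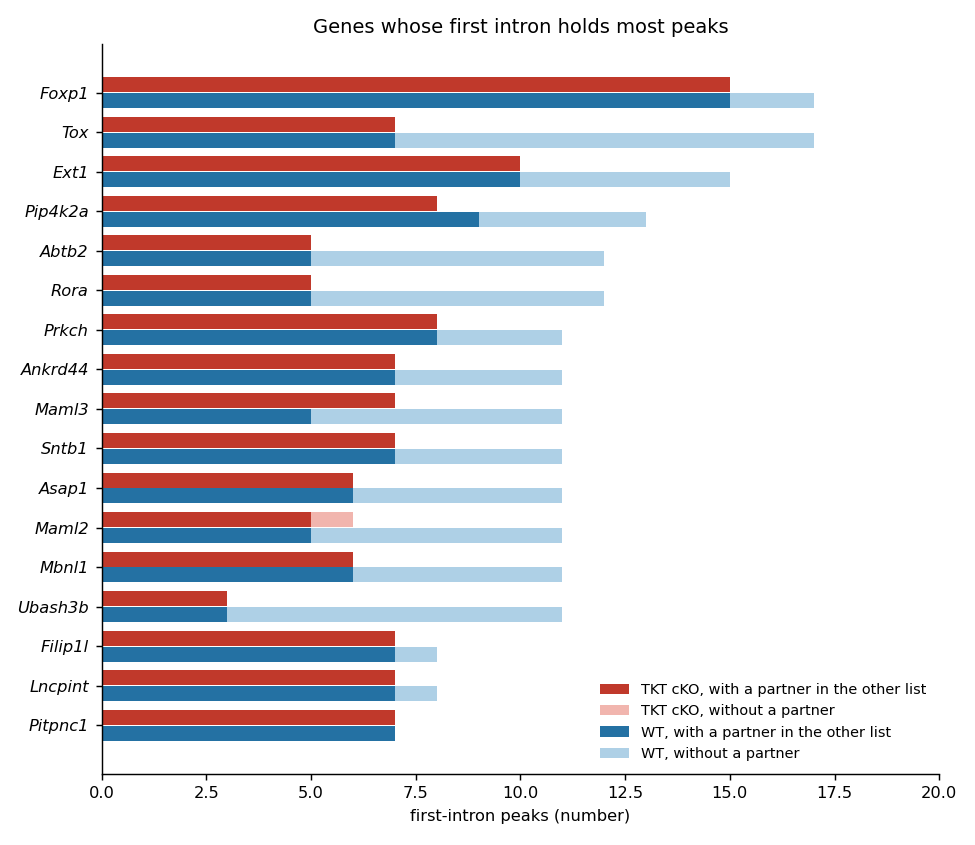
Number of first-intron peaks (x axis) in the host genes with most of them (rows), TKT cKO in red above WT in blue for each gene, with dark bars for peaks that have a partner in the other list and light bars for those that do not. Foxp1 has 15 TKT cKO and 17 WT peaks with 2 WT peaks unpaired, and Tox has 7 TKT cKO and 17 WT peaks with 10 unpaired.

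The remaining hosts at the top of either list had between 6 and 7 peaks in TKT cKO cells and between 7 and 11 in WT cells. Sntb1, a syntrophin, had 7 in TKT cKO cells and 11 in WT cells, 7 of them shared. Ankrd44 had the same counts, and all of its peaks were assigned to other genes. Asap1, an Arf GTPase-activating protein, and Mbnl1, a splicing regulator, each had 6 in TKT cKO cells and 11 in WT cells, 6 of them shared. Filip1l and the long non-coding RNA Lncpint each had 7 in TKT cKO cells and 8 in WT cells, and Pitpnc1, a lipid transfer protein, had 7 in each library, all shared. By the assigned gene, Rapgef1 had 6 peaks in TKT cKO cells and 10 in WT cells, Ankrd11 had 6 in TKT cKO cells and 7 in WT cells, and Grap2, a T cell adaptor, had 6 in TKT cKO cells and 7 in WT cells. The small RNA gene n-R5s30 was assigned 5 peaks in TKT cKO cells and 10 in WT cells, the same ones that lie in the predicted gene Gm41414. The largest count of all belonged to the predicted model Gm20388 on chromosome 8, with 25 peaks in TKT cKO cells and 69 in WT cells. Its peaks span 4211.8 kb in TKT cKO cells and 4309.7 kb in WT cells, and each was assigned to another gene.

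**Figure D5:**
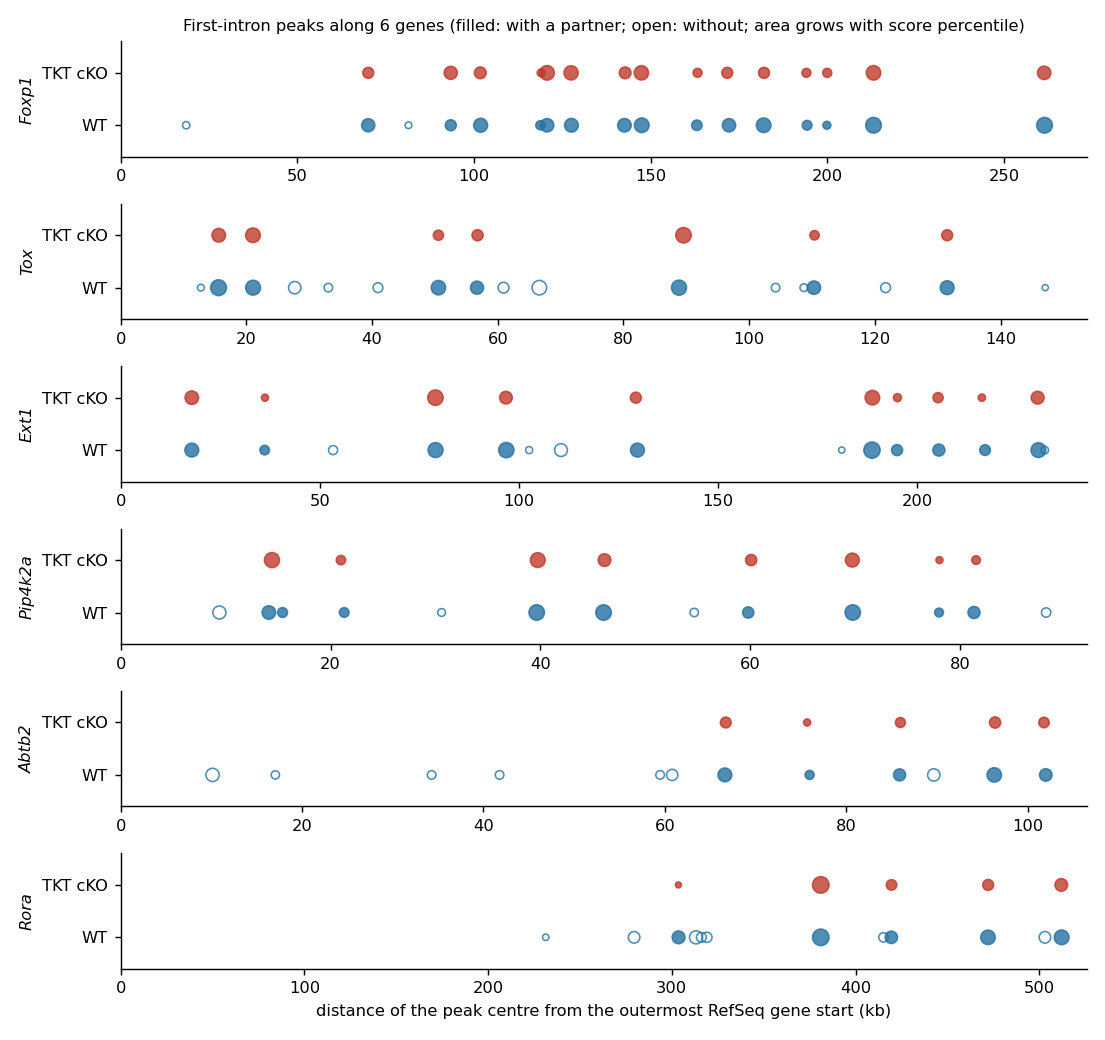
First-intron peaks of 6 host genes by distance of the peak centre from the outermost RefSeq start of the gene (x axis, kb), TKT cKO in red above WT in blue, filled where the other list has an overlapping peak and open where it does not, with an area that grows with score percentile. In each of these genes but Ext1 an open WT peak lies nearer to the start than any TKT cKO peak does; of the WT peaks, 15 of 17 are filled in Foxp1 and 7 of 17 in Tox.

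The strongest first-intron peaks were common to both lists, and predicted models are passed over in the account of them. Ranks here are out of 19680 peaks in TKT cKO cells and 34440 in WT cells. The first was in Tmem267 on chromosome 13, at 119598233 to 119599917 in TKT cKO cells with rank 8 and at 119597711 to 119599872 in WT cells with rank 11. Its percentile was 99.96 in TKT cKO cells and 99.97 in WT cells. The second was in Mdga2 on chromosome 12, at 67059197 to 67059895 with rank 9 in TKT cKO cells and 67059187 to 67059817 with rank 19 in WT cells. The third was in Cldn34d on the X chromosome, at 76598569 to 76599135 with rank 25 in TKT cKO cells and 76598564 to 76599135 with rank 114 in WT cells. The Mdga2 peak was 699 bp wide in TKT cKO cells and 631 bp in WT cells, and the Cldn34d peak 567 bp in TKT cKO cells and 572 bp in WT cells. Both are narrow for their score, since first-intron peaks of the top score bin had a median width of 1436.5 bp in TKT cKO cells and 1308 bp in WT cells. So is the WT peak of Filip1l, named next, at 554 bp. The next named hosts were Smad3, the transcription factor of TGF-β signalling, and Map3k1, a kinase of the JNK pathway, in TKT cKO cells, and Filip1l and Gfod1 in WT cells. Peaks in predicted models stood before Smad3 in TKT cKO cells, 2 of them, and before Filip1l in WT cells, 1 of them. The Smad3 peak ranked 411 in TKT cKO cells (percentile 97.9) and 2152 in WT cells (percentile 93.75). The Filip1l peak ranked 2361 in TKT cKO cells (percentile 88.0) and 483 in WT cells (percentile 98.6).

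The strongest WT peak without a partner was in Fam83f, at chromosome 15, 80681242 to 80682193, at percentile 85.7 of the WT list and 15311 bp from the nearest TKT cKO peak. Next came a peak in Ccnd3, which encodes cyclin D3, at chromosome 17, 47531319 to 47532191, at percentile 83.96 and 1666 bp from a TKT cKO peak. Others among the 10 strongest were in Cmip, Tbcel, Ksr2, Arrdc1, Pxn, Trio and Kmt2a, at percentiles from 77.9 to 71.6. The strongest TKT cKO peak without a partner was far weaker in rank, in Wasf2, an actin regulator, at chromosome 4, 133162078 to 133162636 and percentile 43.2. The following 9 were in Speer4cos, Trio, Wbp1l, Osbpl9, Zfp800, Zfp992, Bckdha, Nedd9 and Gata1, at percentiles from 21.6 to 14.7. The Wbp1l peak lay only 597 bp from a WT peak, and Trio stood in both lists of unpaired peaks with different regions.

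Of 30 genes of Treg identity and suppression, 6 had a first-intron peak in TKT cKO cells and 8 in WT cells, with 10 peaks in TKT cKO cells and 17 in WT cells. Partners were found for 9 of the 10 TKT cKO peaks and for 9 of the 17 WT peaks (52.9%, 31.0 to 73.8), where like score gave 58.7%. Il2ra had 2 peaks in TKT cKO cells and 6 in WT cells, of which 2 were shared. The Il2ra peak at chromosome 2, 11652844 to 11653924 in TKT cKO cells and 11652897 to 11653922 in WT cells, stood at percentile 70.9 in TKT cKO cells and 78.2 in WT cells. The next WT peak of Il2ra, at 11654972 to 11655610, stood at percentile 68.6 and had no partner.

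Entpd1, the ectonucleotidase CD39, had 3 peaks in TKT cKO cells and 4 in WT cells, 3 of them shared, and its strongest peak stood at percentile 77.1 in TKT cKO cells and 76.9 in WT cells. Tnfrsf1b, the receptor TNFR2, had 2 peaks in each library, all shared. Capg, an actin-capping protein, and Itgae, the integrin CD103, had 1 shared peak each. Pdcd1, the inhibitory receptor PD-1, had 1 peak in each library that did not meet, at chromosome 1, 94045894 to 94046399 in TKT cKO cells and 94046571 to 94046968 in WT cells. Both were weak, at percentile 2.67 in TKT cKO cells and 18.8 in WT cells. Icos, a costimulatory receptor, and Nt5e, the ectonucleotidase CD73, each had 1 peak in WT cells and none in TKT cKO cells. The WT peaks stood at percentile 48.5 in Icos and 17.2 in Nt5e, and both genes had TKT cKO peaks of other classes. Over all genes, 806 hosts had first-intron peaks in WT cells alone and 946 in both libraries.

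Of 30 T cell transcription factors, 15 had first-intron peaks in TKT cKO cells and 18 in WT cells, the largest share of members among the lists. Over all genes, 985 hosts stood beside 14043 genes with an assigned peak in TKT cKO cells and 1752 beside 19215 in WT cells. By assigned gene alone, first-intron peaks belonged to 1091 of the 14043 in TKT cKO cells and 2033 of the 19215 in WT cells. Gene length was not held alike, and Rora spans 734.8 kb, Foxp1 597.4 kb and Tox 305.2 kb. All 51 TKT cKO peaks of the list had partners, and 52 of its 99 WT peaks did (52.5%, 42.8 to 62.1), where like score gave 49.2%. Beside Foxp1, Tox and Rora, described above, Foxo1, a factor that restrains effector programmes, had 2 peaks in TKT cKO cells and 7 in WT cells, 2 of them shared. Bach2, a repressor of effector genes, had 4 peaks in TKT cKO cells and 5 in WT cells, 4 of them shared. Its peak at chromosome 4, 32257755 to 32258756 in TKT cKO cells, was among the strongest of the list at percentile 90.7 in TKT cKO cells and 94.85 in WT cells. Runx3, a factor of the CD8 T cell lineage, had 2 WT peaks and none in TKT cKO cells. Those WT peaks stood at percentiles 40.6 and 9.57, and TKT cKO cells had Runx3 peaks of other classes. Over all genes, 806 hosts had first-intron peaks in WT cells alone and 946 in both libraries.

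Of 28 genes of T cell receptor signalling, 10 had first-intron peaks in TKT cKO cells and 14 in WT cells. All 20 TKT cKO peaks and 20 of 47 WT peaks (42.55%, 29.5 to 56.7) had partners, where like score gave 48.1%. Cd247, the zeta chain of the receptor complex, had 4 peaks in TKT cKO cells and 5 in WT cells, 4 of them shared. Prkcq, the kinase PKC-θ, had 3 peaks in TKT cKO cells and 4 in WT cells, 3 of them shared, and its strongest stood at percentile 78.2 in TKT cKO cells and 82.3 in WT cells. Cd6, a surface receptor of T cells, had 1 peak in TKT cKO cells and 4 in WT cells, 1 of them shared. Lck, the proximal kinase, Themis, a signalling adaptor of thymocytes, and Sh2d1a, the adaptor SAP, each had 2 WT peaks and none in TKT cKO cells. The percentiles of these WT peaks were 50.6 and 23.9 in Lck, 32.7 and 2.48 in Themis, and 15.8 and 5.65 in Sh2d1a. Each of these genes had TKT cKO peaks of other classes. Over all genes, 806 hosts had first-intron peaks in WT cells alone and 946 in both libraries.

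Of 18 genes of homing and migration, 4 had first-intron peaks in TKT cKO cells and 7 in WT cells. All 8 TKT cKO peaks and 9 of 14 WT peaks (64.3%, 38.8 to 83.7) had partners, where like score gave 56.6%. Elmo1, a partner of DOCK proteins, had 2 peaks in TKT cKO cells and 4 in WT cells, 2 of them shared. Cd44, an adhesion receptor, had 3 peaks in each library and Dock2, a Rac activator of lymphocyte migration, had 2 in each, all shared. The strongest Dock2 peak stood at percentile 91.7 in TKT cKO cells and 81.05 in WT cells. Arhgap15, a Rac GTPase-activating protein, had 1 peak in TKT cKO cells and 2 in WT cells, 1 of them shared.

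Of 16 pentose phosphate pathway genes, Tkt included, none had a first-intron peak in TKT cKO cells, and the gene annotated as Pgm2 on chromosome 4, which RefSeq names Pgm1 and which encodes a phosphoglucomutase, had 2 in WT cells without partners, at percentiles 26.0 and 10.3. Over all genes there were 985 hosts of first-intron peaks beside 14043 genes with an assigned peak of any class in TKT cKO cells. In WT cells there were 1752 hosts beside 19215 such genes. By assigned gene alone the counts were 1091 of 14043 in TKT cKO cells and 2033 of 19215 in WT cells. Nothing particular to the pathway is read from its counts. For each of the 4 T cell lists above, the interval of the WT share held the share of first-intron peaks of like score.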

How the data were processed

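ATAC-seq peaks of 1 TKT cKO and 1 WT library of mouse Treg cells were analysed. The submitters' processing notes name the build mm10 and the tools BWA, MACS2, Trimmomatic and FastQC. For versions, settings, the annotation tool, a Tn5 offset shift or a blacklist the entry is: not given in the sources used here. The authors deposited 1 list per library, so peaks were called per library, each with a position, a score, an annotation and a distance to the assigned start. The meaning of the deposited score is not stated per the file headers, so it served only as a rank within its list. Read depth is unknown.

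Members were the rows annotated as intron 1 of a transcript, and hosts were read from the annotation text. Overlap of at least 1 bp was computed in Python 3.11.15 with numpy 2.4.6 and pandas 2.3.3, and it differed from bedtools 2.31.1 for 0 peaks. Shares have 95% Wilson intervals. Classes were set side by side in 10 equal score bins with weights from the first-intron peaks. This step was run on simulated data that drew each peak independently. Effects of width and of a shared host were not simulated. The intervals cover counting error only. Motifs were searched in RefSeq start windows of 300 bases that touch a member, on both strands. The planned search in peak sequences was not run, as peak sequences were not used here, and the windows shown were chosen by score rank in its place.

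Named genes are, passing over predicted models, the 10 hosts and assigned genes with most members per library with ties, the 5 strongest members and the 10 strongest without a partner, and in each gene list up to 4 genes with most WT members and any gene with at least 2 WT members that all lack a partner. Bach2, Capg, Itgae, Pdcd1, Icos and Nt5e, which this rule does not all cover, were named after their values were seen. Some genes that this rule covers are not reported here. Members and lists were chosen with earlier results of these data known. Alternatives were the overlap, the list length, a score threshold, the bins, width, distance and the definition of a gene.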

Additional observations from a re-analysis of the deposited data

How the results depend on the processing

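No paired analysis was possible because there is 1 library per genotype, and for the same reason no replicate could be left out. Of the differences at like score, that against later introns was 3.08 points with width held alike and 2.84 with width and distance, that against intergenic peaks 2.13 with width, and that against promoters turned to 3.23 when only promoter peaks 1 to 3 kb from a start were used. The comparison with 2.84 and the one with 3.23 were chosen after seeing the data, as were those without the predicted host with most peaks and those with distance alone. The TKT cKO share with a partner was 95.2% when 50% of the shorter peak had to overlap, 69.9% at equal list lengths and 98.3% among peaks above the median score of each list. The WT share was 74.95% at equal lengths, 35.97% above the medians and 49.2% among peaks as wide as the narrowest TKT cKO peak. First-intron peaks were 4.14% of the TKT cKO list and 6.38% of the WT list above the medians, and 7.04% of the WT list at equal lengths. Genes in TKT cKO cells alone numbered 282 at equal lengths and 8 above the medians, and those in WT cells alone 213 and 492 in the same order. The shorter or stronger lists change these counts by construction; the cause of the other shifts was not tested. The other 26 alternative values kept their direction. Shares and differences among them stayed within the interval of the reported value, and counts of genes within 1.5 times. Unknown depth limits every statement on peaks found in one list alone.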
